A study of Homo sapiens with 6 samples.

Results

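The 10 genes described here encode the human fatty acid elongases ELOVL1 to ELOVL7 and the desaturases SCD, FADS1 and FADS2. They were chosen by gene symbol from the array's platform annotation, which gave 10 of the 18132 genes measured and 26 of the 49293 probe sets. The family was taken up because ELOVL6 was already known to be among the largest differences of this same comparison. The members' differences and calls are therefore given as a description, without p-values. All arrays carry RNA of Huh7 cells, an established human hepatocellular carcinoma line, collected in logarithmic growth after a change of medium the day before. The labels form 2 groups of 3 arrays each, KCa3.1 silenced Huh7 cells (genotype KCa3.1 knockdown) and control Huh7 cells. KCNN4 encodes KCa3.1, a potassium channel opened by calcium. The labels give neither the means of silencing nor what the control cells received. Whether the replicates came from separate cultures is not stated, so errors and p-values measure only the spread between these arrays.

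Cells lengthen fatty acids on the endoplasmic reticulum by adding carbon pairs from malonyl-CoA. An elongase carries out the condensing, rate-limiting step of each round, and a reductase, a dehydratase and a further reductase complete it. Desaturases insert double bonds with electrons passed on by cytochrome b5 and its reductase. In liver, ELOVL6 extends palmitate made by fatty acid synthase to stearate and SCD turns saturated chains into monounsaturated ones. FADS1, FADS2, ELOVL5 and ELOVL2 together make long polyunsaturated fatty acids from dietary precursors. Several of these genes are known targets of the sterol-regulated factor SREBP-1.

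The deposited values are log2 RMA values that had been set near 0 for each probe set, so 0 is a baseline of the probe set and not an absence of RNA. A value can be compared between arrays but not between genes, and it cannot be checked whether the hepatocyte markers of the cells or the markers of other cell types were strongly expressed. Each gene's value is the mean of its probe sets. A call means that limma, fitted over all genes or over all probe sets, gave a Benjamini-Hochberg adjusted p under 0.05. Over all probe sets, which are not independent replicates, Pearson's r lay between 0.406 and 0.67 for pairs of arrays with 1 label. For pairs with different labels it lay between -0.273 and 0.068. Each probe set's level had been taken out, so these r compare departures from the baseline and not whole expression profiles. Centring by itself can bring r between labels near or below 0.

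By the mean of its 3 probe sets the targeted gene KCNN4 did not bear out the label. All 3 carry a suffix for probes that may match more than 1 transcript. The centred values do not show whether KCNN4 RNA was detected in either group, and the part of these limits was not tested. KCNN4 stood at -0.055, 0.089 and 0.011 on the arrays labelled silenced and at -0.006, 0.126 and -0.073 on the control arrays. The difference was -0.00033 on the log2 scale (SE 0.069, 95% interval -0.16 to 0.16, limma adjusted p = 1, two-sided exact permutation p = 1 where 0.1 is the smallest possible). All differences below are therefore between arrays as labelled, silenced label minus control label, and the first group is called the silenced-labelled arrays.

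The RefSeq promoters of the 5 members whose silenced-labelled values all lay above the control values are shown first, because these are the members the results turn on. Each line gives the 250 bases before the annotated start, 5′ to 3′ on the gene's strand, in build GRCh38.p14. Capitals mark matches, on either strand, to any of 5 short motifs named below. The lines are chr4:110198616-110198865 (minus strand) for ELOVL6, chr6:79947554-79947803 (minus strand) for ELOVL4, chr10:100346983-100347232 (plus strand) for SCD, chr11:61817004-61817253 (minus strand) for FADS1, and chr11:61816154-61816403 (plus strand) for the second of the 2 annotated starts of FADS2.
ELOVL6: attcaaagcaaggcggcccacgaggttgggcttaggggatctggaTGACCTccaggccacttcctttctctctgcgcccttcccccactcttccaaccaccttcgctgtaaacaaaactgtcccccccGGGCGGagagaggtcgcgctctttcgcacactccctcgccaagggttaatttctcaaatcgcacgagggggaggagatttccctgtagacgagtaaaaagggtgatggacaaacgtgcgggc
ELOVL4: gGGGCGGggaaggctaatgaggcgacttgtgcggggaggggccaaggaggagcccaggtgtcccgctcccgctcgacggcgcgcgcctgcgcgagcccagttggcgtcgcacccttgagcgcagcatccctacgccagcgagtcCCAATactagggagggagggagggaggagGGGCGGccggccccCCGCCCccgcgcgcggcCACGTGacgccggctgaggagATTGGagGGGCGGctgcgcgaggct
SCD: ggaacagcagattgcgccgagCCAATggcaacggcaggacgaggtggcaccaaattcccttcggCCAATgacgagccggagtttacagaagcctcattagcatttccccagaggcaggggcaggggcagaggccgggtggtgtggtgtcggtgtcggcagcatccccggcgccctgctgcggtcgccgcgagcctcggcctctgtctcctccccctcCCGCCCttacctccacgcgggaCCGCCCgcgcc
FADS1: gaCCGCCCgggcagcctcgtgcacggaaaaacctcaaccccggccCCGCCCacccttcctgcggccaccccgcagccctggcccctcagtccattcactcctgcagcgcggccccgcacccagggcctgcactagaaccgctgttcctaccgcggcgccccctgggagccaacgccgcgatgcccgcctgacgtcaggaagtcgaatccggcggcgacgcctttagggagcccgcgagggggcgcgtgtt
FADS2: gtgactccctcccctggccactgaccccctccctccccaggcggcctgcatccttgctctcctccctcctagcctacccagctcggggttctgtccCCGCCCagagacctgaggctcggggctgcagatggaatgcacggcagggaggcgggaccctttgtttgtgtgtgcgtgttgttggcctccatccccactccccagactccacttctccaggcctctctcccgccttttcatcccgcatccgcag

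All 10 members had a promoter in the RefSeq table, 11 windows in all, each running from 250 bases before the start to 50 after it. The motifs were looked for in these whole windows, and in 34943 windows of the same length over all genes. CACCCCA, the core of a sterol regulatory element, was found in 1 member window, that of ELOVL3, and in 8.1% of all windows. The E-box CACGTG, a sequence bound by USF and by ChREBP, was found in 2 member windows, those of ELOVL4 and ELOVL5, and in 7.2% of all windows. The CCAAT box stood in 6 of the 11 member windows (ELOVL1, ELOVL3, ELOVL4, ELOVL5, SCD and FADS2) and in 34.6% of all windows. In FADS2 its only copy lay just after the second start, outside the bases printed. The window of the first FADS2 start, which is not printed, had no match to any of the motifs. The GC box GGGCGG, bound by SP1, was found in 9 of 11 member windows and in 44.9% of all. The nuclear receptor motif AGGTCA was found in 1 member window, as its complement TGACCT upstream of ELOVL6, and in 13.8% of all windows. A CCAAT box overlapped a GC box in ELOVL1, and 2 GC boxes overlapped in ELOVL2. The member windows held 57.3% to 83.7% G and C, where the median of all windows was 58.7%. These matches describe the letters in the windows and show no binding, and the absence of a match says nothing about a factor.

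In the silenced-labelled arrays 3 of the 10 members were past the threshold and higher, ELOVL6, FADS1 and ELOVL4, where 7.14% of all genes were called higher and 13.3% were called in either direction. None of the members was called lower (0 of 10), where 6.19% of all genes were. The family was taken up from this contrast, so nothing is read from that share. The groups did not overlap in 5 members with the silenced-labelled arrays higher, against 15% of all genes, and in 1 member with them lower, against 14.4% of all genes and 29.3% in either direction. In a bulk RNA sample such as these, more cells that express a gene and more RNA per cell cannot be told apart. The median difference of the 10 members was 0.074, against -0.0058 over all genes. ELOVL6 was the only member past the threshold in every fit that left out 1 array, and the count of members called higher was 1 without control replicate 3 and 1 without any of the 3 silenced replicates.

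**Figure D1:**
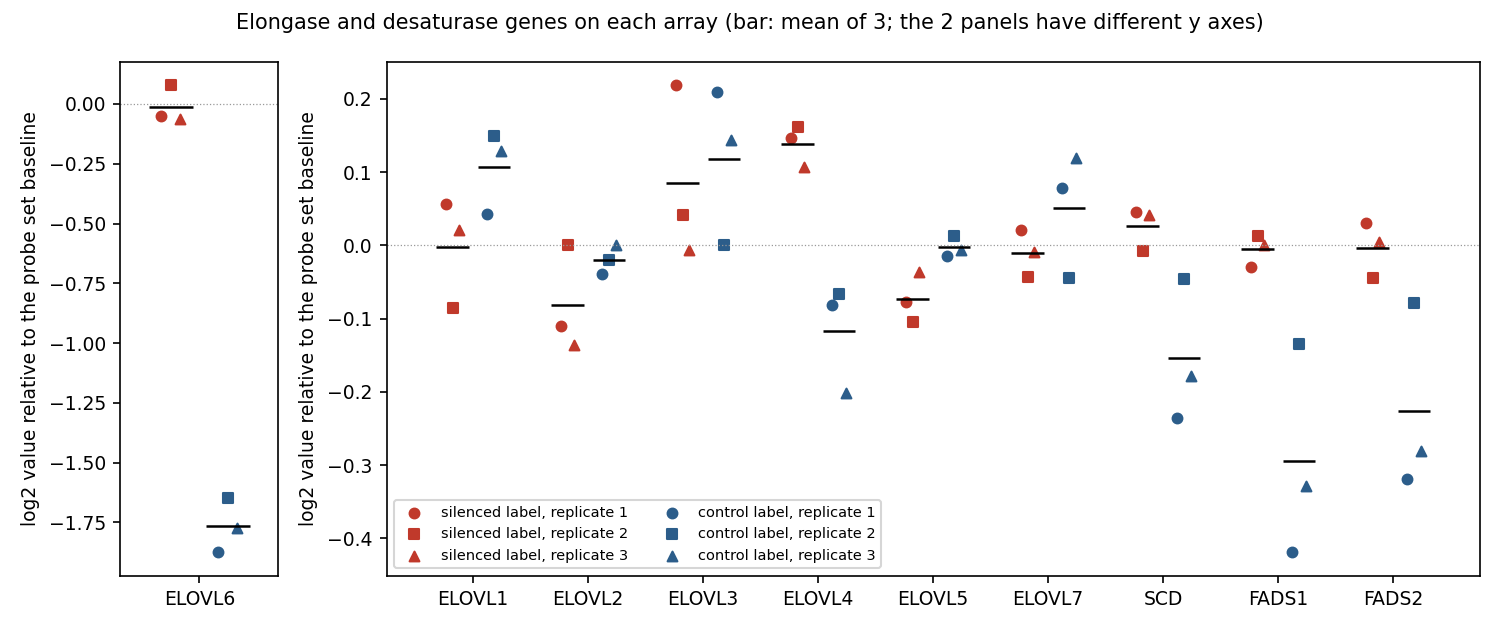
Log2 values, relative to each probe set's baseline, of the 10 members on each of the 6 arrays, with silenced-labelled arrays in red on the left of each gene and control arrays in blue on the right, and a bar at the mean of 3. ELOVL6 has its own panel and y axis, where the means are -0.0105 and -1.76, and among the other genes ELOVL4, SCD, FADS1 and FADS2 have all red points above all blue ones.

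ELOVL6, the elongase of palmitate (Entrez gene 79071, chromosome 4, 110045846 to 110199202 in GRCh38.p14), had by far the largest difference of the family. It stood at -0.049, 0.08 and -0.063 on the silenced-labelled arrays and at -1.875, -1.647 and -1.772 on the control arrays. The silenced-labelled arrays lay at the baseline and the control arrays far below it, with no overlap. The reference for this baseline is not known, so the values do not show which group had changed. The silenced-labelled mean was -0.0105 ± 0.0789 and the control mean -1.76 ± 0.114 (SD, n = 3 each). The difference was 1.75 (SE 0.073, 95% interval 1.59 to 1.92), a level 3.37-fold higher in the silenced-labelled arrays, with an interval of 3.01 to 3.78. Of all 18132 genes it had the 15th largest difference in size and the 11th largest rise. Its 3 probe sets differed by 1.82 (SE 0.09), 1.66 (SE 0.10) and 1.78 (SE 0.066) and all were past the threshold.

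SCD, the stearoyl-CoA desaturase that acts on the products of FASN and ELOVL6 (Entrez gene 6319, chromosome 10, 100347233 to 100364826), stood at 0.046, -0.008 and 0.041 on the silenced-labelled arrays and at -0.236, -0.046 and -0.179 on the control arrays. The groups did not overlap, and control replicate 2 lay closest to the silenced-labelled arrays. The difference was 0.18 (SE 0.063, 95% interval 0.036 to 0.32), 1.13-fold, and was not past the threshold. Its 4 probe sets disagreed in size. The one with the largest difference gave 0.44 (SE 0.079) and passed, with 0.103, -0.003 and 0.129 on the silenced-labelled arrays against -0.443, -0.225 and -0.418 on the control arrays. The other 3 differed by 0.14 (SE 0.071), 0.10 (SE 0.089) and 0.034 (SE 0.058) and did not pass. With its most variable probe set in place of the mean, SCD was past the threshold at 0.44. All 4 carry a suffix for probes that may match more than 1 transcript, and which of them tracks SCD best was not tested.

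**Figure D2:**
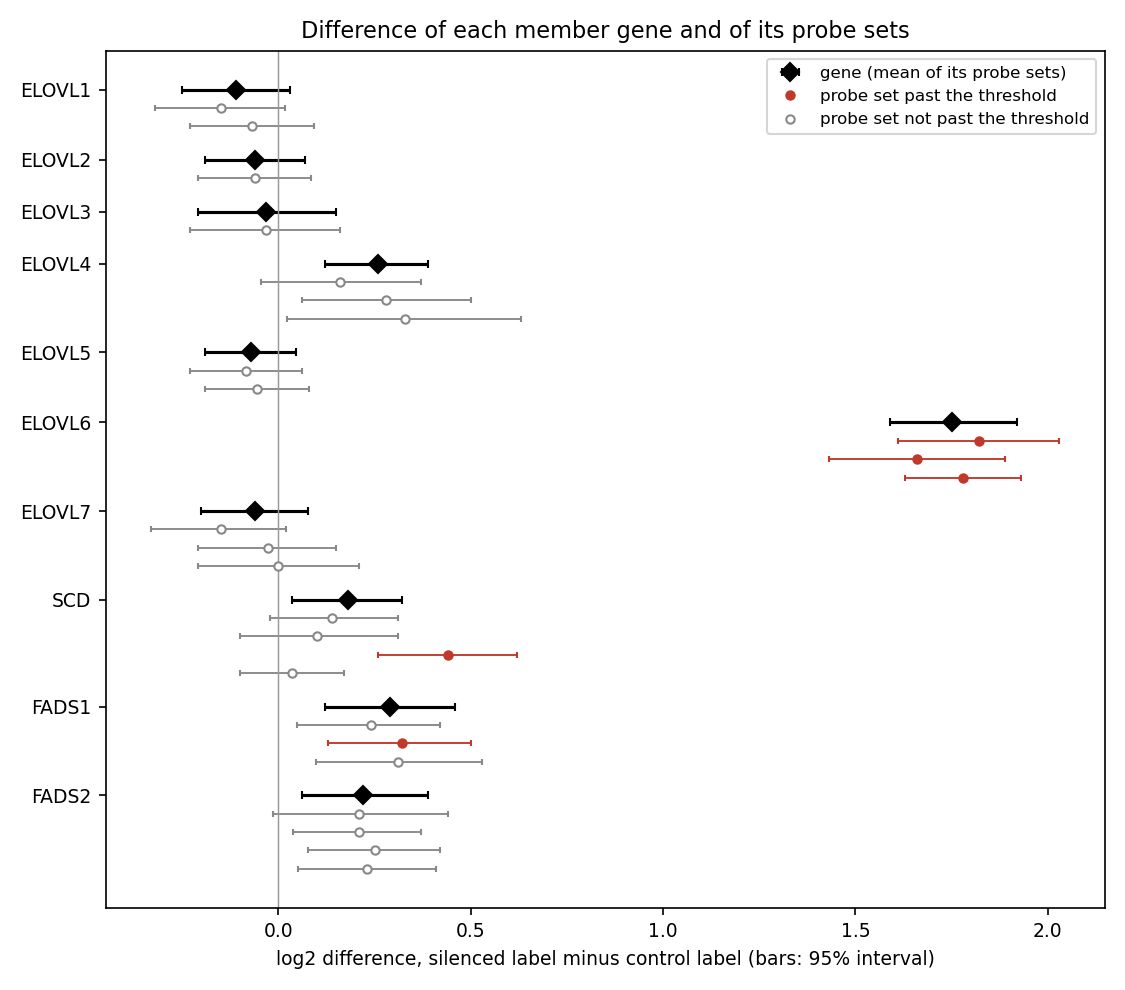
Difference in log2 value, silenced label minus control label, of each member gene (black diamonds) and of each of its 26 probe sets (circles, red where past the threshold), with 95% intervals. The 3 probe sets of ELOVL6 lie together between 1.66 and 1.82, while those of SCD spread from 0.034 to 0.44.

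FADS1 and FADS2 encode the desaturases that make arachidonic and related acids, and lie next to each other on chromosome 11 (61799627 to 61817003 and 61816203 to 61867354). Their annotated spans run on opposite strands and overlap by 801 bases at the 5′ ends. FADS1 (Entrez gene 3992) stood at -0.03, 0.013 and 0 on the silenced-labelled arrays and at -0.419, -0.135 and -0.328 on the control arrays. All silenced-labelled values lay above all control values, and control replicate 2 was again the nearest. The difference was 0.29 (SE 0.075, 95% interval 0.12 to 0.46), 1.22-fold, and past the threshold. With 1 array left out that call held in the fit without control replicate 2 alone, and in the other 5 fits the difference lay between 0.23 and 0.30. It was also lost when the most variable probe set stood for the gene (0.31) and with limma's trend and robust options (0.29). Its 3 probe sets differed by 0.24, 0.32 and 0.31, and the middle one of these alone was past the threshold.

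FADS2 (Entrez gene 9415), which performs the first and rate-limiting desaturation of the pathway, stood at 0.03, -0.044 and 0.004 on the silenced-labelled arrays and at -0.319, -0.079 and -0.281 on the control arrays. The groups did not overlap, with control replicate 2 close to the lowest silenced-labelled value. The difference was 0.22 (SE 0.072, 95% interval 0.06 to 0.39), 1.17-fold, and was not past the threshold. Its 4 probe sets gave 0.21, 0.21, 0.25 and 0.23, and none passed alone. Without control replicate 2 the difference was 0.30 (SE 0.06) and past the threshold.

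Control replicate 2 was the highest control array in 17 of the 26 member probe sets. These were 14 of the 14 probe sets of ELOVL6, SCD, FADS1 and FADS2, 1 of the 3 of ELOVL4, and 2 of the 9 of the other 5 elongases. Over all probe sets this array was the highest control in 34.3%, and over those called higher in 35.4%. In ELOVL4 it was the lowest control array in 1 probe set, with -0.062, -0.274 and -0.038 on control replicates 1 to 3. The grouping of the 4 genes was made after this pattern was seen, and probe sets of a gene share its transcripts, so the counts are a description. The labels give no batch to which the array could be assigned, and its part in the results was not tested.

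**Figure D3:**
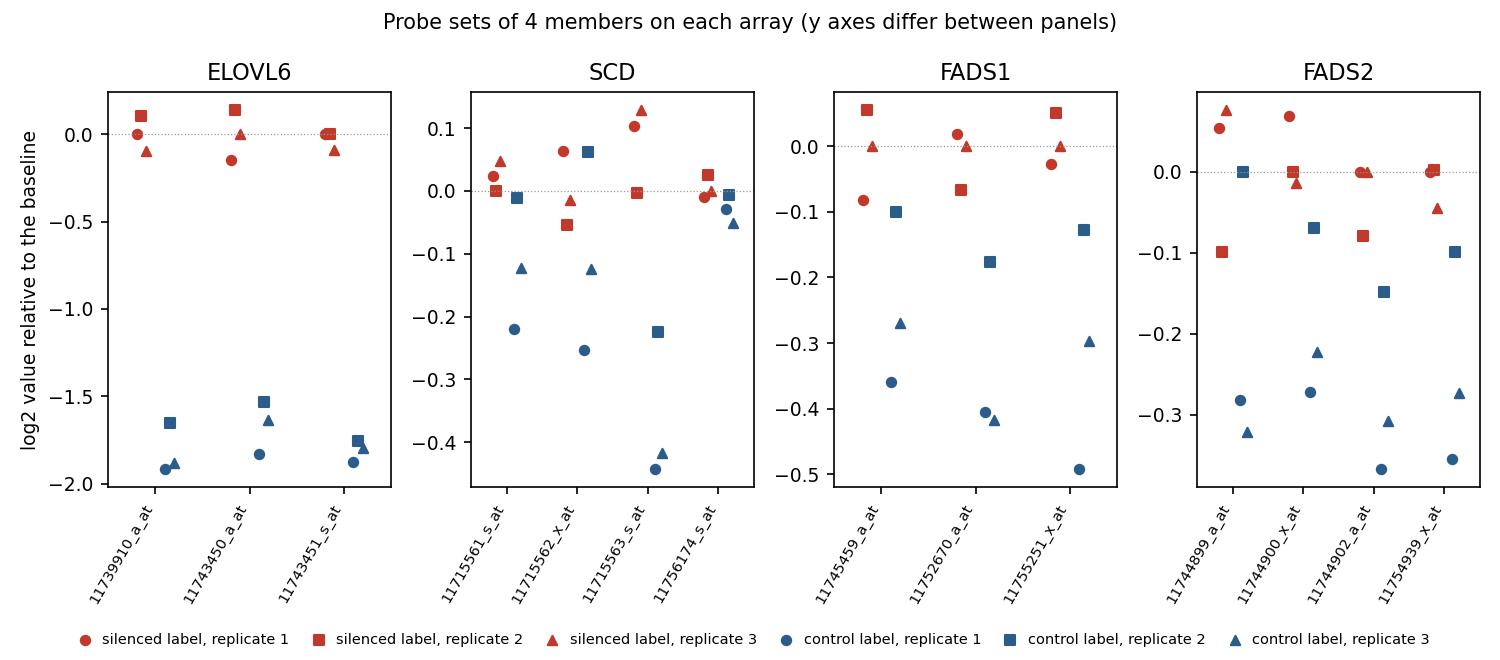
Log2 values of the 14 probe sets of ELOVL6, SCD, FADS1 and FADS2 on each array, silenced label in red and control label in blue, with the replicate number given by the symbol and a separate y axis in each panel. Control replicate 2 (blue squares) is the highest control array in every probe set shown.

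FADS3, a gene of the same cluster (chromosome 11, 61873526 to 61892224), differed in the opposite direction. It is related to FADS1 and FADS2 in sequence and is known to act on sphingoid bases. Measured by 1 probe set, it stood at 0.107, -0.072 and 0 on the silenced-labelled arrays and at 0.324, 0.393 and 0.338 on the control arrays. The groups did not overlap and the log2 value of FADS3 fell by 0.34 (SE 0.062, limma adjusted p = 0.0069). It stayed past the threshold whichever array was left out, with differences between -0.39 and -0.30.

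ELOVL4, the elongase of very long chains best known from the retina and skin (Entrez gene 6785, chromosome 6, 79914814 to 79947553), stood at 0.147, 0.162 and 0.107 on the silenced-labelled arrays and at -0.081, -0.067 and -0.202 on the control arrays. The groups were clear of each other. The difference was 0.26 (SE 0.058, 95% interval 0.12 to 0.39), 1.19-fold, and past the threshold. None of its 3 probe sets passed alone, with differences of 0.16 (SE 0.09), 0.28 (SE 0.095) and 0.33 (SE 0.13), and in 2 of them the groups overlapped. The gene's call did not survive leaving out control replicate 3 (0.21) or silenced replicate 1 (0.25), 2 (0.24) or 3 (0.27). It was also lost with the most variable probe set (0.33) and with probe sets that lack a suffix for shared probes (0.24).

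ELOVL5 and ELOVL2 encode the elongases of polyunsaturated fatty acids. ELOVL5 (Entrez gene 60481, chromosome 6, 53267404 to 53348950) stood at -0.078, -0.105 and -0.037 on the silenced-labelled arrays and at -0.015, 0.013 and -0.006 on the control arrays. The groups did not overlap, with the silenced-labelled arrays lower, in the gene and in both of its probe sets, where 13% of all probe sets lay lower without overlap. The difference of -0.071 (SE 0.051, 95% interval -0.19 to 0.046) was not past the threshold. ELOVL2 (Entrez gene 54898, chromosome 6, 10980759 to 11044305), measured by 1 probe set, had -0.11, 0 and -0.136 on the silenced-labelled arrays and -0.039, -0.02 and 0 on the control arrays. The groups overlapped, with a difference of -0.062 (SE 0.057, 95% interval -0.19 to 0.068). The intervals reach down to 0.878-fold for ELOVL5 and 0.875-fold for ELOVL2.

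ELOVL1, ELOVL3 and ELOVL7 extend saturated chains. ELOVL1 (Entrez gene 64834, chromosome 1, 43363401 to 43368011), the broadly expressed elongase of very long chains, had 0.057, -0.086 and 0.021 on the silenced-labelled arrays and 0.043, 0.149 and 0.129 on the control arrays. The groups overlapped through 1 array of each, and the difference was -0.11 (SE 0.061, 95% interval -0.25 to 0.029). ELOVL7 (Entrez gene 79993, chromosome 5, 60751791 to 60844269) had 0.021, -0.043 and -0.009 on the silenced-labelled arrays and 0.078, -0.045 and 0.119 on the control arrays. Its groups overlapped, and the difference was -0.061 (SE 0.061, 95% interval -0.20 to 0.077). ELOVL3 (Entrez gene 83401, chromosome 10, 102224767 to 102229589), known in mice from brown fat and skin, was measured by 1 probe set at 0.219, 0.042 and -0.007 on the silenced-labelled arrays and 0.209, 0 and 0.144 on the control arrays. With the groups fully mixed, its difference was -0.033 (SE 0.079, 95% interval -0.21 to 0.15). The sign of ELOVL3 turned without control replicate 1 and without silenced replicate 3, to 0.013 in each case.

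Ordered by difference the members ran ELOVL6, FADS1, ELOVL4, FADS2, SCD, ELOVL3, ELOVL7, ELOVL2, ELOVL5 and ELOVL1. The interval of ELOVL6 begins above the end of every other member's interval, which describes a gene for whose difference the family was taken up. The intervals of FADS1, ELOVL4, FADS2 and SCD overlapped one another widely, and so did those of the 5 members with negative differences. Over the 26 probe sets 17 had a positive difference, and 5 were called higher, against 5.82% of all probe sets, and 0 lower, against 4.85%. The call went to all 3 probe sets of ELOVL6 and to 1 each of SCD and FADS1. Of the 156 member values 28 were exactly 0, and such ties at the baseline can narrow the spread within a group.

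Across the 6 arrays the 5 genes most like ELOVL6 were ARSJ, AIG1, BTF3L4, SEC11A and SIPA1L1, each with a Pearson r of 0.998 over gene values. The arrays form 2 groups, so this r mostly measures the difference between the labels, and 115 genes (0.634%) had an r above 0.99. BTF3L4 resembled ELOVL6 in size as well, with 0.055, 0.125 and 0.122 on the silenced-labelled arrays and -1.76, -1.6 and -1.626 on the control arrays. Its difference was 1.76 (SE 0.062, limma adjusted p = 8e-07). AIG1, which encodes a hydrolase of branched fatty acid esters, differed by 0.69, SIPA1L1 by 0.56, SEC11A, a subunit of the signal peptidase, by 0.54 and the sulfatase gene ARSJ by 0.50. The value of ARSJ was 1.09 with its most variable probe set and 0.23 with probe sets that lack a suffix for shared probes. Within the family ELOVL4 had an r of 0.95 with ELOVL6, FADS1 0.90, SCD 0.86 and FADS2 0.85, while ELOVL5 had -0.86.

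Around these 10 genes, 95 other genes of fatty acid elongation, desaturation and their supply and use were measured, in 7 lists. Of these 22 were higher in the silenced-labelled arrays, 10 were lower and 63 did not pass the test (limma, all genes adjusted together), with a median difference of 0.055 against -0.0058 over all genes. The share of all genes called higher was 7.14% and that called lower 6.19%. The count of higher genes was 14 without silenced replicate 3, and that of lower genes was 6 without silenced replicate 2 or 3 or control replicate 2 or 3. Of the 32 called genes 18 stayed past the threshold whichever array was left out. With the most variable probe set in place of the mean, the calls of CYB5R3, CYB5R1, ACLY, SQLE, FDPS and AGPAT2 were lost. Those of FASN, PECR and ACOX3 were lost too, but each of these genes has 1 probe set. Their values and differences were therefore the same there, and only the SE from limma was larger (0.082, 0.092 and 0.10). The called genes FADS3, CYB5R2, CYB5R4, DECR2 and ACOX2 also rest on 1 probe set each. With limma's trend and robust options the calls of HSD17B12, SQLE and ACLY were lost.

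**Figure D4:**
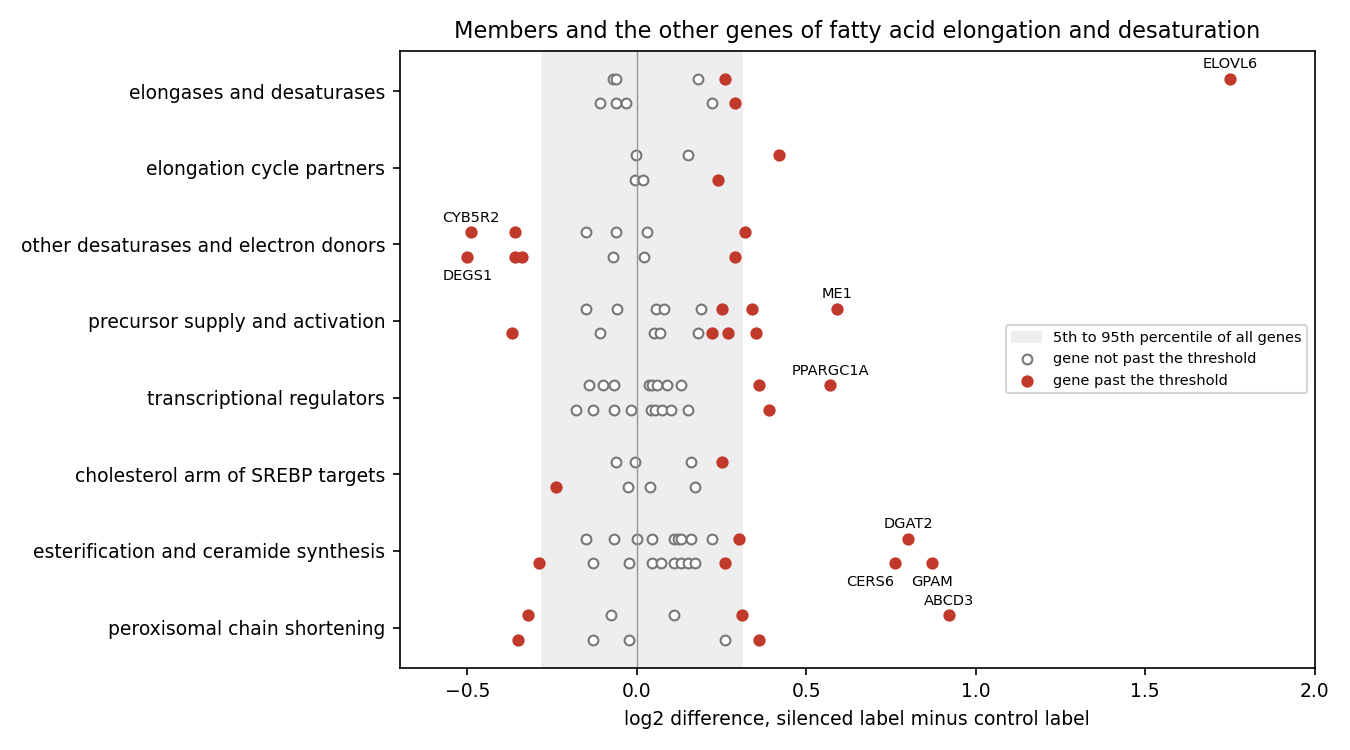
Difference in log2 value, silenced label minus control label, of the 10 members (top) and of 95 other genes in 7 lists, filled red where past the threshold, with the 5th to 95th percentile of all genes shaded (-0.28 to 0.31). ELOVL6 at 1.75 lies beyond every gene of the lists, the next being ABCD3 at 0.92 and GPAM at 0.87.

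Of 6 measured enzymes and partners that complete each round of elongation 2 were higher, 0 lower and 4 did not pass, with a median of 0.086. HACD3, a dehydratase of the cycle, had 0.204, 0.197 and 0.256 on the silenced-labelled arrays against -0.273, -0.158 and -0.17 on the control arrays, and rose by 0.42 (SE 0.057, limma adjusted p = 0.0014). HSD17B12, the first reductase of the cycle, rose by 0.24 (SE 0.054, limma adjusted p = 0.019). It did not pass in 5 of the 6 fits that left out 1 array, all but that without control replicate 1, with differences between 0.22 and 0.26 there. Its size also depended on the probe sets, with 0.40 for the most variable one (limma adjusted p = 0.0086) and 0.16 for those that lack a suffix for shared probes, which did not pass (limma adjusted p = 0.19). Nor did HSD17B12 pass with limma's trend and robust options (adjusted p = 0.054). TECR, the last reductase, stood at -0.0055 (SE 0.062, limma adjusted p = 0.98).

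Among 12 other desaturases and electron donors the test called 5 lower and 2 higher and left 5 uncalled, with a median of -0.11. DEGS1, the desaturase that makes ceramide from dihydroceramide, had -0.243, -0.045 and -0.037 on the silenced-labelled arrays against 0.26, 0.428 and 0.486 on the control arrays, and its log2 value fell by 0.50 (SE 0.081, limma adjusted p = 0.0037). CYB5A, a cytochrome b5 that hands electrons to SCD, had -0.107, -0.095 and 0.003 on the silenced-labelled arrays against 0.156, 0.35 and 0.36 on the control arrays. It fell by 0.36 (SE 0.071, limma adjusted p = 0.01). Among the reductases that recharge it, CYB5R2 fell by 0.49 (SE 0.076, limma adjusted p = 0.0029) and CYB5R3 fell by 0.36 (SE 0.074, limma adjusted p = 0.012). The call of CYB5R3 was lost without control replicate 2 (-0.34). FADS3, described above, was the fifth lower gene. CYB5R4 rose by 0.32 and CYB5R1 by 0.29 (limma adjusted p = 0.015 and 0.019). The call of CYB5R4 was lost without silenced replicate 1 or control replicate 2 (0.28 in each case), and that of CYB5R1 without silenced replicate 3 or control replicate 1 or 3 (0.24 to 0.29). SCD5, the second human stearoyl-CoA desaturase, differed by 0.031 and did not pass (limma adjusted p = 0.79).

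Among 16 measured genes that supply palmitate, malonyl-CoA and reducing power 6 were called higher and 1 lower, while 9 were not called, with a median of 0.13, and 3 were higher without silenced replicate 2, without silenced replicate 3 and without control replicate 3. ME1, the malic enzyme that yields NADPH, had 0.095, 0.114 and 0.199 on the silenced-labelled arrays against -0.416, -0.538 and -0.399 on the control arrays, and rose by 0.59 (SE 0.062, limma adjusted p = 0.00035). The acyl-CoA synthetase gene ACSL1 rose by 0.35 (limma adjusted p = 0.011), while its relative ACSL5 fell by 0.37 (limma adjusted p = 0.0033). With its most variable probe set ACSL5 stood at -0.89 (limma adjusted p = 7e-05). FASN, the fatty acid synthase, rose by 0.25 (SE 0.059, limma adjusted p = 0.024), a call that held in just 1 of the 6 fits with an array left out, that without control replicate 2, with differences between 0.21 and 0.27 in the other 5. The remaining 3 higher genes, named after their values were seen, were the mitochondrial citrate carrier SLC25A1 (0.34), the citrate lyase ACLY (0.22) and the NADPH source IDH1 (0.27). SLC25A1 stood at 0.57 with its most variable probe set, and at -0.19 and uncalled when probe sets with a suffix for shared probes were left out. The call of ACLY was likewise lost in all but the fit without control replicate 2 (0.20 to 0.22), and that of IDH1 without silenced replicate 2 or 3 or control replicate 3 (0.25). ACACA, which makes malonyl-CoA, did not pass at 0.19 (SE 0.076, limma adjusted p = 0.17), although its groups did not overlap, and it passed with its most variable probe set at 0.37 (limma adjusted p = 0.012).

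Of 20 regulators the test called 3 higher and 0 lower and left 17 uncalled, with a median of 0.049. SREBF1, the gene of SREBP-1, had 0.004, 0.098 and 0.127 on the silenced-labelled arrays against -0.05, -0.003 and -0.1 on the control arrays, a difference of 0.13 that did not pass (SE 0.059, limma adjusted p = 0.22). With its most variable probe set SREBF1 stood at 0.071 and SREBF2 at -0.29, neither past the threshold. SREBF2 stood at -0.18 by the mean (limma adjusted p = 0.068), MLXIPL, the gene of ChREBP, at 0.075 (limma adjusted p = 0.52), and NR1H3, the gene of the oxysterol receptor LXR-alpha, at -0.14 (limma adjusted p = 0.39). The 3 that passed were the coactivator gene PPARGC1A, which rose by 0.57 (SE 0.061, limma adjusted p = 0.00039), MBTPS2, a protease that releases SREBPs, by 0.39 (limma adjusted p = 0.0034), and INSIG1, which holds SREBPs in the endoplasmic reticulum and is itself one of their targets, by 0.36 (limma adjusted p = 0.0056). These 3 calls held whichever array was left out. The 8 measured genes of cholesterol synthesis and sterol transport, which SREBPs also drive, had a median of 0.017, with 1 higher, 1 lower and 6 not past the test. SQLE rose by 0.25 and FDPS fell by 0.24 (limma adjusted p = 0.021 and 0.014). The call of SQLE was lost without silenced replicate 2 or 3 or control replicate 1 or 3 (0.22 to 0.25), and that of FDPS without silenced replicate 2 or 3 or control replicate 3 (-0.25 to -0.22).

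Elongated and desaturated chains are placed into lipids by the enzymes of esterification and ceramide synthesis, where the test called 5 of 23 genes higher and 1 lower and left 17 uncalled, with a median of 0.12. GPAM, which starts glycerolipid synthesis, rose by 0.87 (SE 0.052, limma adjusted p = 1.8e-05) and DGAT2, which completes triglycerides, by 0.80 (SE 0.061, limma adjusted p = 6e-05). CERS6, a ceramide synthase that prefers palmitoyl-CoA, had 0.254, 0.051 and 0.035 on the silenced-labelled arrays against -0.715, -0.682 and -0.548 on the control arrays, and rose by 0.76 (SE 0.077, limma adjusted p = 0.00029). LPIN1 rose by 0.30 and CERS4 by 0.26, and AGPAT2 fell by 0.29 on the log2 scale (limma adjusted p = 0.006, 0.04 and 0.036). The calls of CERS4 and AGPAT2 were each lost in 5 of the 6 fits that left out 1 array, all but that without silenced replicate 2 for CERS4 and that without control replicate 1 for AGPAT2, with differences between 0.22 and 0.30 and between -0.32 and -0.24.

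In the peroxisomal shortening that finishes docosahexaenoic acid 10 genes were measured, of which the test called 3 higher and 2 lower and left 5 uncalled, with a median of 0.044. ABCD3, a peroxisomal transporter of acyl-CoA, had 0.255, 0.084 and 0.112 on the silenced-labelled arrays against -0.715, -0.907 and -0.692 on the control arrays, and rose by 0.92 (SE 0.076, limma adjusted p = 1e-04). The reductase gene DECR2 rose by 0.36 (limma adjusted p = 0.0028) and PECR by 0.31 (limma adjusted p = 0.024). The acyl-CoA oxidase genes ACOX3 and ACOX2 fell by 0.35 and 0.32 on the log2 scale (limma adjusted p = 0.029 and 0.018). Both oxidase calls were lost without silenced replicate 2 or 3 or control replicate 2 or 3, where the differences lay between -0.35 and -0.28 for ACOX3 and between -0.33 and -0.27 for ACOX2. That of PECR was lost without silenced replicate 3 or control replicate 1 or 3 (0.25 to 0.33).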

How the data were processed

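RNA of 6 samples, 3 per group by their titles, was hybridised to 1-colour arrays. To obtain the deposited log2 values the authors used RMA (background correction, quantile normalisation and summary of probes), a step named without a version in the submitters' processing notes. The values lie between -2.2 and 2.32 and every array has a median of 0. This small range over all probe sets was taken to mean that each probe set had been centred, on an unknown reference. That step is not given in the sources used here, and the base of the logarithm was taken from RMA's usual output. Exact zeros make up 17% to 21.1% of each array. Scanner intensities were not used here, so depth is unknown and the number of arrays limits the precision.

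Of 49395 probe sets 102 controls were left out, 44988 carried 1 gene symbol, 1832 several and 2473 none. No symbol needed updating through RefSeq (0). Probe sets with 1 symbol were averaged by gene, which gave 18132 genes. Differences were fitted with limma 3.58.1 in R 4.3.3 (lmFit, eBayes, group as the only term) over all genes, and in a separate fit over all probe sets, with Benjamini-Hochberg adjustment and a threshold of 0.05. The script was tested on simulated data. Alternatives were 3 other summaries of probe sets, quantile normalisation, another moderation, a replicate block and leaving out each array. The members, lists and motifs were chosen with earlier results of these data known, and no list was tested as a set. Of 111 listed pathway genes 95 were measured, and the others are not analysed here. Named are all members, KCNN4, the 3 largest called and non-overlapping genes of each list, 8 genes fixed by name, counts of 5 or fewer, and the 5 genes most like ELOVL6. SCD5, SLC25A1, ACLY and IDH1 were named after their values were seen. Promoters are RefSeq's. A planned comparison of member proteins was not made.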

Additional observations from a re-analysis of the deposited data

How the results depend on the processing

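The count of members called higher was 3, and 2 or 3 under the alternative summaries, normalisation and moderation. It lay between 1 and 4 when 1 array was left out, and the count called lower was 0 throughout. ELOVL6 was called under each of the alternatives run, with differences between 1.70 and 1.81 when 1 array was left out. Under the other alternatives its difference lay between 1.63 (quantile normalisation) and 1.82 (most variable probe set). Pathway genes called higher numbered 22, and 14 to 20 with 1 array left out. Those called lower numbered 10, with 6 for the most variable probe set and 6 to 10 with 1 array left out. Among all genes 1123 were called lower, and 736 to 1167 with 1 array left out. The difference of KCNN4 changed sign around 0, to 0.021 with the most variable probe set and 0.0014 after quantile normalisation, and lay between -0.045 and 0.055 with 1 array left out. TECR turned to 0.016 with the most variable probe set and lay between -0.048 and 0.035 with 1 array left out, and ELOVL3 lay between -0.10 and 0.013. SLC25A1, called higher at 0.34, stood at -0.19 with probe sets that lack a suffix for shared probes, and was not called there. The causes were not tested. SCD, KCNN4, DEGS1, FDPS, TECR, MLXIPL, ACLY, AGPAT2, BTF3L4 and SEC11A have no probe set without a suffix for shared probes. That alternative gave no value for them.

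With the replicate number as a block, 3 members were called higher, and 18 pathway genes were higher and 9 lower. Deviations from the group means correlated at -0.096, -0.069 and -0.04 for same-numbered arrays. These values cannot settle whether same-numbered arrays were handled together, which the labels do not state. Between differently numbered arrays r lay between -0.379 and 0.381, highest for silenced replicate 1 with control replicate 3 (0.381), silenced 3 with control 2 (0.381) and silenced 2 with control 1 (0.373). No label pairs these arrays, the deviations of 3 arrays sum to 0 within a group, and no block was fitted on this matching.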

Other observations

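Of the hepatocyte markers APOA1 (1.14), SERPINA1 (0.40), APOB (0.38) and FGB (0.20) were past the threshold and higher in the silenced-labelled arrays, while ALB (0.16), TTR (0.056) and TF (-0.19) were not past it. Of the fibroblast markers the collagen gene COL1A2 was higher, with 0.55, and COL1A1, COL3A1, DCN and LUM lay between -0.082 and 0.078. None of the 3 leukocyte markers measured (PTPRC, CD3E and CD68) and none of the 3 endothelial markers (PECAM1, CDH5 and VWF) was past the threshold, with differences between -0.21 and 0.015. The levels of these markers are unknown on the centred scale, and their part in the differences of the elongases and desaturases was not tested.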
